A study of Mus musculus with 4 samples.

Results

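Cytochrome P450 genes encode haem enzymes, most of which insert an oxygen atom into steroids, sterols, vitamins, fatty acids, drugs or dietary compounds. The genes described here were chosen by symbol: every gene whose name is Cyp followed by a number, a letter code and a number, except Cyp11a1, Cyp17a1, Cyp26a1 and Cyp26b1, which were left out by name. The rule found 87 genes among the 20299 genes listed in all 4 libraries. Its working name speaks of P450 genes outside steroid synthesis, but 4 of the 87 do make steroid hormones: Cyp19a1 (aromatase), Cyp21a1 and the adrenal enzymes Cyp11b1 and Cyp11b2. They are reported with the rest.

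Microsomal P450 enzymes take electrons from the reductase Por, and mitochondrial ones take them from ferredoxin, which is itself reduced by Fdxr. The large mouse families Cyp2, Cyp3 and Cyp4 lie in clusters of closely related genes and are best known from the adult liver, kidney, lung and gut. A smaller number have fixed roles in bile acid, cholesterol, vitamin D and retinoid turnover, and the steroid-making members are the ones best known from the gonad and adrenal gland.

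RNA was measured in gonads of fetuses at 15.5 days post coitum (dpc), from CF1 females mated with TgOG2 males. The TgOG2 transgene places EGFP under the Oct4 promoter, so that germ cells fluoresce, and all 4 groups come from this cross. The groups were sorted GFP+ male germ cells, GFP+ female germ cells, GFP- male gonadal somatic cells and GFP- female gonadal somatic cells, with 1 library each. Nothing in the labels says how many animals were pooled, so the spread between fetuses is not known. The GFP- fraction takes every cell without EGFP: the erythroid marker genes summed to 30280 SPM in the male somatic library and 11290 SPM in the female somatic library. SPM is the deposited signal per 1000000 after scaling between libraries. It was not divided by gene length, so SPM values compare libraries and not genes.

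The sorts matched the germ and somatic labels. The germ cell genes Ddx4, Dazl, Pou5f1, Dppa3, Mael and Tdrd1 summed to 3789 SPM in male germ cells and 2235 SPM in female germ cells, against 26.5 SPM in male somatic cells and 6.43 SPM in female somatic cells. All 6 were at least 4-fold higher in germ than in somatic cells of each sex. Pou5f1 is Oct4, whose promoter drives the EGFP, so it is not independent of the sort. The 7 Sertoli markers summed to 595 SPM in male somatic cells and 68.0 SPM in female somatic cells. The 6 pregranulosa markers summed to 105.9 SPM and 1038 SPM in the same order. The sex of the germ libraries rests on their labels. Depth was estimated at 24.9 and 17.5 M fragments (M stands for 1000000) in the male and female germ libraries, and at 17.6 and 24.2 M in the male and female somatic libraries. A gene listed at 0 could still hold up to 3 fragments, a floor worth 0.113 SPM in male germ cells, 0.179 SPM in female germ cells, 0.180 SPM in male somatic cells and 0.120 SPM in female somatic cells. Intervals and floors cover counting error only.

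The windows upstream of 6 genes are shown because these genes had the largest ratios between 2 libraries, the higher of which was at 5 SPM or more, among genes with an entry in RefSeq. Each window holds the 250 bases before the listed start, read 5′ to 3′ on the strand of the gene, from RefSeq (build GRCm38.p6), and capitals mark CpG dinucleotides. Cyp4v3, the mouse counterpart of the human fatty acid hydroxylase CYP4V2, has its window at chr8:45333164-45333413 on the minus strand, with 17 CpG. Cyp1b1, which oxidizes oestrogens and polycyclic hydrocarbons, has its window at chr17:79715062-79715311 on the minus strand, with 12 CpG. Cyp2j6, an arachidonic and linoleic acid oxidase, has its window at chr4:96553652-96553901 on the minus strand, with 3 CpG. Cyp2c55, an arachidonic acid oxidase known from the colon, has its window at chr19:39006769-39007018 on the plus strand, with 0 CpG. Cyp2r1, which adds the first hydroxyl group to vitamin D, has its window at chr7:114562973-114563222 on the minus strand, with 16 CpG. Cyp4f18, a leukotriene hydroxylase of myeloid cells, has its window at chr8:72009627-72009876 on the minus strand, with 3 CpG.
Cyp4v3: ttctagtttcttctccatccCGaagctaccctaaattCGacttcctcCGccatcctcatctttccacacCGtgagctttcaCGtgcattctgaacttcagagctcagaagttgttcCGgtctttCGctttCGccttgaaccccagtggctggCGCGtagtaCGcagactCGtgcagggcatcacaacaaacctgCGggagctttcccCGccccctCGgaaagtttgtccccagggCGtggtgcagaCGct
Cyp1b1: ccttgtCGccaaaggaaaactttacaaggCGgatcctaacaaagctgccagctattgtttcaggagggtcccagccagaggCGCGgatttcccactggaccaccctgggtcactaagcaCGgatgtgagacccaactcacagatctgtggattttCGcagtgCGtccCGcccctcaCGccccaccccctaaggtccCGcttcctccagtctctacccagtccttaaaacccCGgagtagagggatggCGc
Cyp2j6: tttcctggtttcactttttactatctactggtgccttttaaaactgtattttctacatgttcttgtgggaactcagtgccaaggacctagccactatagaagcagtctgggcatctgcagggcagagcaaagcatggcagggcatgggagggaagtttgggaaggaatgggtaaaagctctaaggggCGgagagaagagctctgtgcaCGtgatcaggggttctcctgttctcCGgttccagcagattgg
Cyp2c55: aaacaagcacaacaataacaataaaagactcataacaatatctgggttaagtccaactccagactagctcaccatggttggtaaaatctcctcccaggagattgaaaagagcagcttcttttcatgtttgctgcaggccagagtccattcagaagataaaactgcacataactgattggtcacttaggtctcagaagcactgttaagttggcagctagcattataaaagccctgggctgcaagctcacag
Cyp2r1: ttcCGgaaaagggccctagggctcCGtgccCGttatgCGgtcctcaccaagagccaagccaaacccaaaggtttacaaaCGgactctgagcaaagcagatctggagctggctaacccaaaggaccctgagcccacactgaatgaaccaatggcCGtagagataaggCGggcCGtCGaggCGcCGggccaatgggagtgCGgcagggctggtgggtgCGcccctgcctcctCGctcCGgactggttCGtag
Cyp4f18: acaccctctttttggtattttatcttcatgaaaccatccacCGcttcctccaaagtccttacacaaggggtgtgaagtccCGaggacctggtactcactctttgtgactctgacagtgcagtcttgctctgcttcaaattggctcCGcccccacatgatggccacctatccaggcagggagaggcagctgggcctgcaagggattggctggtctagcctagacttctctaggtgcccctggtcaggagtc

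Most P450 genes were at or near 0 in the fetal gonad. Male germ cells had 32 of the 87 genes at or above 1 SPM (36.8%, against 70.1% of all genes) and female germ cells 12 (13.8%, against 63.1% of all genes). Male somatic cells had 19 (21.8%, against 65.7%) and female somatic cells 21 (24.1%, against 65.8%). In every library the P450 share lay below the share of all genes, and it was lowest in female germ cells. In bulk samples, fewer cells of a type and less RNA per cell cannot be told apart. The genes under 1 SPM in every library numbered 48, or 55.2% against 23.2% of all genes, and 11 of them were listed at 0 throughout (12.6% against 7.86%). Those 11 were 4 Cyp2c genes (Cyp2c29, Cyp2c38, Cyp2c50 and Cyp2c54), 3 Cyp3a genes (Cyp3a16, Cyp3a44 and Cyp3a57), Cyp2j5, Cyp2j11, Cyp2d34 and Cyp4a10. Summed over all 87 genes the level was 206.5 SPM in male germ cells and 86.7 SPM in female germ cells, against 270.7 SPM in male somatic cells and 304.4 SPM in female somatic cells.

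**Figure D1:**
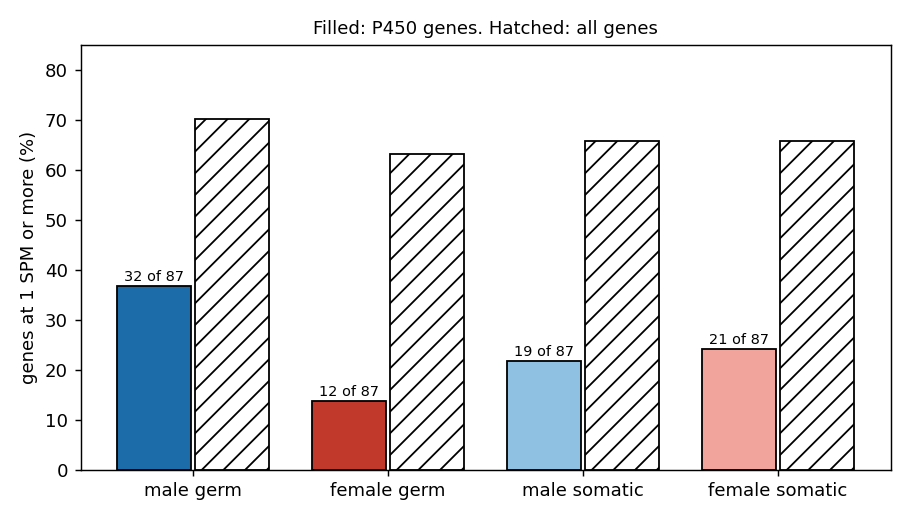
Share of genes at 1 SPM or more (vertical axis, percent) in each library (1 library per group). Filled bars are the 87 P450 genes, with the number detected above the bar, and hatched bars are all 20299 genes. The male germ bar, 32 of 87, is the tallest of the filled bars and the female germ bar, 12 of 87, the lowest.

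Male germ cells held traces of far more P450 genes than any other library. Male germ cells listed 73 of the 87 genes above 0 (83.9%; all genes 90.4%), and female germ cells 34 (39.1%; all genes 77.3%). Male somatic cells listed 30 (34.5%; all genes 78.7%) and female somatic cells 32 (36.8%; all genes 79.8%). Some of these genes lay below the floor of 3 fragments: 18 for male germ cells, 9 for female germ cells, 4 for male somatic cells and 5 for female somatic cells. The median P450 gene had 0.366 SPM in male germ cells and at 0 in the other 3 libraries, where the median over all genes was 7.11 SPM in male germ cells, 4.89 SPM in female germ cells, 9.39 SPM in male somatic cells and 9.43 SPM in female somatic cells. Of the 76 genes with signal anywhere, male germ cells held the highest value of 45 (59.2%; all genes 33.3%) and female germ cells that of 9 (11.8%; all genes 26.8%). Male somatic cells held the highest value of 10 (13.2%; all genes 20.4%) and female somatic cells that of 12 (15.8%; all genes 19.5%). The female somatic library had nearly the depth of the male germ library. It listed 55 of the 87 genes at 0, against 14 in male germ cells. Of all 20299 genes it listed 4094 at 0, against 1942 in male germ cells. The part of depth in the male germ traces was not tested.

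Among the 87, 17 P450 genes had at least 3 fragments in male germ cells and were listed at 0 in the other 3 libraries. That is 19.5% of the P450 genes, where 3.36% of all genes met the same rule. Female germ cells had 1 such gene of their own (Cyp2c39; all genes 0.222%), male somatic cells 0 (all genes 0.064%) and female somatic cells 0 (all genes 0.172%). The 17 genes were Cyp1a2 and Cyp7a1, 5 Cyp2c genes (Cyp2c40, Cyp2c67, Cyp2c68, Cyp2c69 and Cyp2c70), 4 Cyp2b genes (Cyp2b9, Cyp2b10, Cyp2b19 and Cyp2b23), Cyp2a5 and Cyp2a12, 3 Cyp2j genes (Cyp2j8, Cyp2j12 and Cyp2j13) and Cyp2d9. Many of them are known from the liver: Cyp7a1 is the rate-limiting enzyme of bile acid synthesis, Cyp1a2 oxidizes caffeine and aromatic amines, and Cyp2b10 is the phenobarbital-induced P450. Their levels were low: Cyp7a1 stood at 1.01 SPM and Cyp1a2 at 1.04 SPM in male germ cells. With a minimum of 1 SPM in place of 3 fragments, 8 of the 87 P450 genes met the rule, where 0.522% of all genes did. With a minimum of 10 fragments, 11 of the 87 met it, where 1.42% of all genes did. In all, 50 of the 87 P450 genes were listed at 0 in both somatic libraries. The share of all genes at 0 in both was not counted. Taken singly, the male somatic library listed 78.7% of all genes above 0 and the female somatic library 79.8%.

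Other liver genes did not share 1 pattern. The 7 liver markers summed to 47.6 SPM in male germ cells and 12.4 SPM in female germ cells, against 1.5 SPM in male somatic cells and 1.78 SPM in female somatic cells. Most of the male germ sum came from Afp at 31.4 SPM and Apob at 11.4 SPM, and Apob was also at 11.5 SPM in female germ cells. Afp stood at no more than 0.282 SPM in the other libraries. Apoa1 was likewise highest in male germ cells, at 3.648 SPM against no more than 0.7196 SPM elsewhere. Serpina1a was highest there by little, at 1.006 SPM against 0.9633 SPM in female somatic cells. Alb, the defining transcript of hepatocytes, had 0.0731 SPM in male germ cells and at no more than 0.177 SPM in the other libraries, Ttr was at 0.0731 SPM in male germ cells, and Fgb was listed at 0 there.

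The male germ signal was spread over several genes of 2 clusters, with 1 gene making up most of each sum. The Cyp2c cluster on chromosome 19 (mm9, 39081508 to 40261776) holds 14 of the genes, and they summed to 25.3 SPM in male germ cells and 1.08 SPM in female germ cells, against 0.305 SPM in male somatic cells and 0 SPM in female somatic cells. Male germ cells listed 9 of these 14 genes above 0, female germ cells 3, male somatic cells 1 and female somatic cells 0. Cyp2c55, at the proximal end, made up most of that sum with 18.3 SPM, and the next were Cyp2c69 at 2.09 SPM, Cyp2c70 at 2.04 SPM and Cyp2c40 at 1.45 SPM, genes named here after their values were seen. The cluster of 13 genes on chromosome 7 (mm9, 26587494 to 27943583) was above 0 at all 13 genes in male germ cells, while female germ cells listed 2, male somatic cells 2 and female somatic cells 3. There the sum was 19.7 SPM in male germ cells and 1.53 SPM in female germ cells, against 16.2 SPM in male somatic cells and 16.8 SPM in female somatic cells, and Cyp2s1 was most of the male germ sum (11.7 SPM) and of both somatic sums. In male germ cells 4 of the 13 genes lay below the floor, at 2 fragments each. Genes within a cluster are close copies, and reads shared between copies cannot be assigned to 1 of them.

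**Figure D2:**
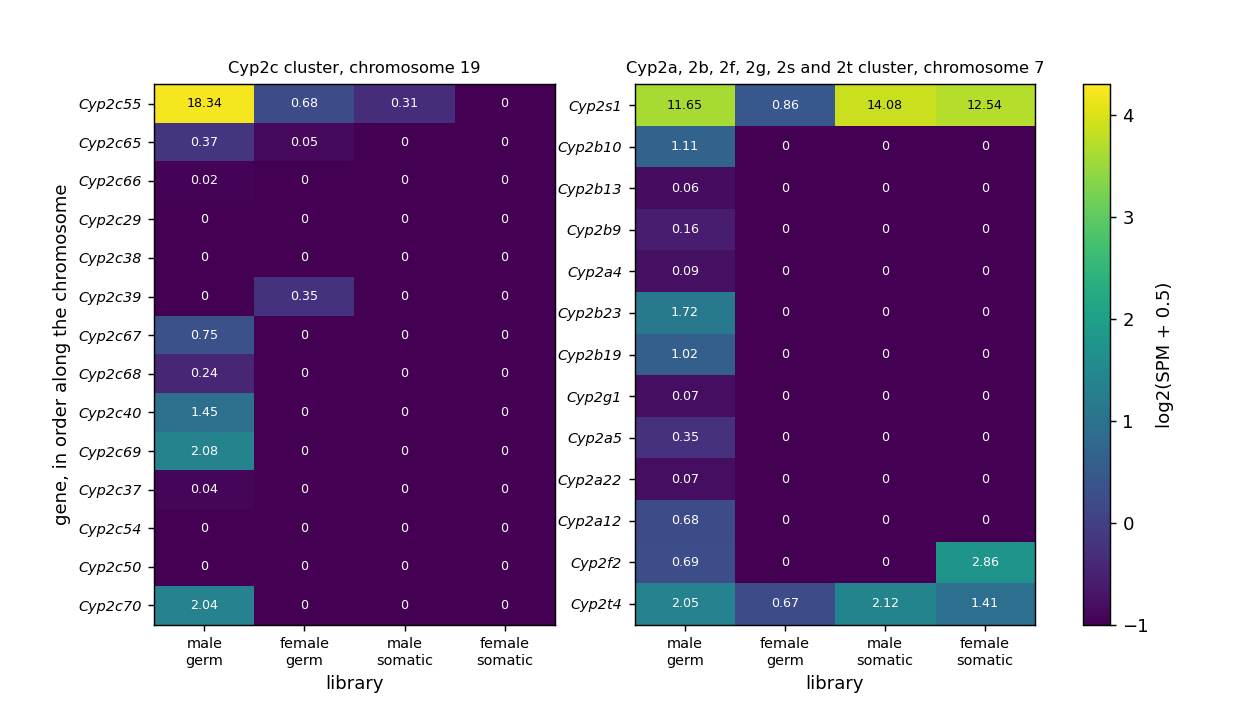
Level (SPM, printed in each cell; colour is log2(SPM + 0.5)) of the genes of the chromosome 19 Cyp2c cluster and of the chromosome 7 Cyp2 cluster, in chromosomal order, in the 4 libraries (1 per group). In male germ cells 9 of 14 and 13 of 13 genes lie above 0, and Cyp2c55 and Cyp2s1 are the brightest rows.

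The remaining clusters followed other orders. The Cyp3a cluster on chromosome 5 (mm9, 146106138 to 146924859), which holds the main drug-oxidizing P450 genes of the liver, was close to silent. Its 6 genes summed to 0.247 SPM in male germ cells and to 0 in the other 3 libraries. The 7 Cyp2j genes on chromosome 4 (mm9, 95709350 to 96330810) summed to 5.83 SPM in male germ cells and 0.118 SPM in female germ cells, against 23.0 SPM in male somatic cells and 16.2 SPM in female somatic cells. The 6 genes Cyp4a, Cyp4b and Cyp4x further along chromosome 4 (mm9, 114781286 to 115320310) summed to 5.24 SPM in male germ cells and 0 in female germ cells, against 0.236 SPM in male somatic cells and 0.165 SPM in female somatic cells. The 7 Cyp4f genes on chromosome 17 (mm9, 32589667 to 33084306) were the only cluster above 0 at every gene in 3 libraries, with sums of 74.6 SPM in male germ cells and 11.6 SPM in female germ cells, against 54.5 SPM in male somatic cells and 96.7 SPM in female somatic cells.

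**Figure D3:**
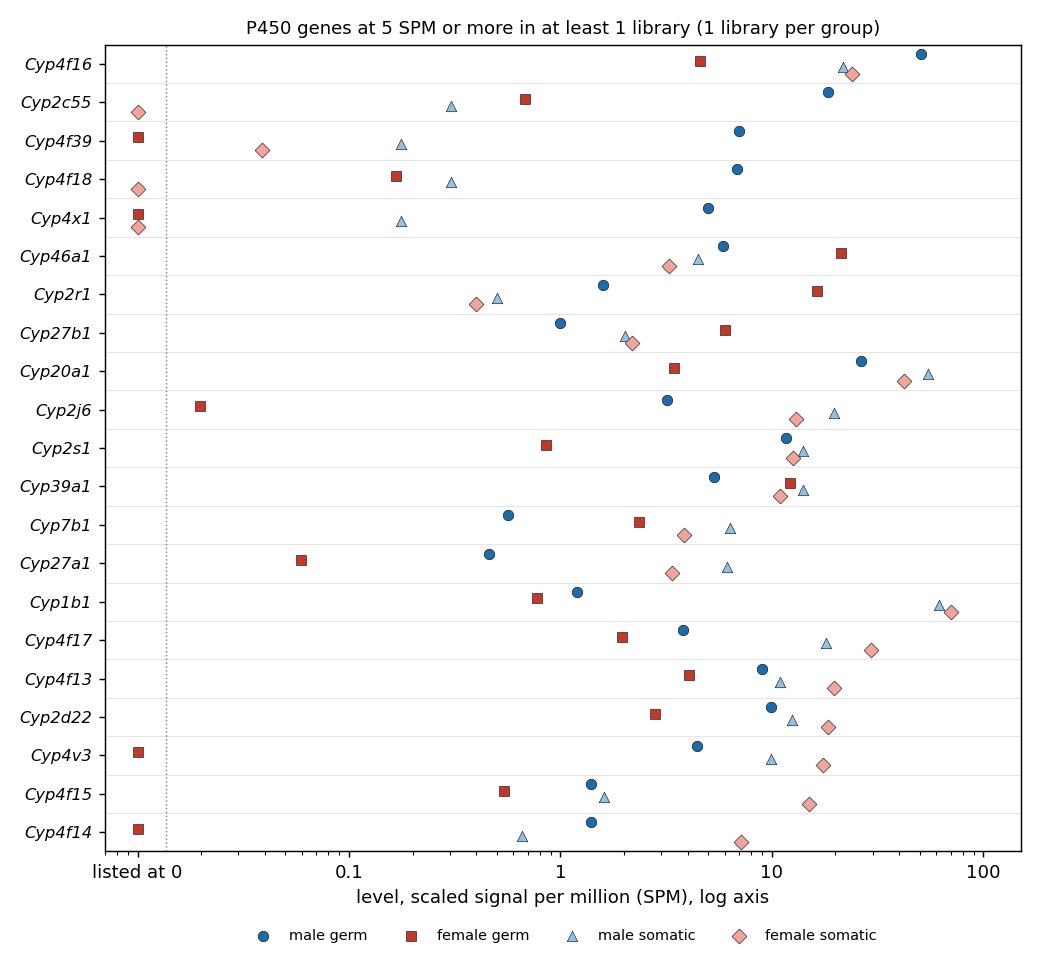
Level (SPM, log axis; a separate column marks genes listed at 0) of the 21 P450 genes that reached 5 SPM in a library, 1 point per library. Cyp4f16, Cyp2c55, Cyp4f39, Cyp4f18 and Cyp4x1 are highest in male germ cells, Cyp46a1, Cyp2r1 and Cyp27b1 in female germ cells, and the other 13 in a somatic library.

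Germ cells were compared with somatic cells over both sexes. The linear model of limma was fitted to log2(SPM + 0.5) for the 14148 genes that reached 1 SPM in 2 or more libraries, with Benjamini-Hochberg adjustment, 2 libraries a side and a two-sided test. Of the 87 P450 genes, 21 were tested. At an adjusted p under 0.05, 1 of them was lower in germ cells (5.56% of all genes tested) and 0 were higher (2.5%). At an unadjusted p under 0.05 there were 4 lower (19%; all genes 18.7%) and 0 higher (all genes 12.7%), so the share lower was near that of all genes. The limma count was 6 with sex as a term in the fit (5 lower, where 13.8% of all genes were; 1 higher, where 7.73% were). It was 8 without the male germ library (7 lower, where 13.6% of all genes were; 1 higher, where 11.8% were), and 0 without the male or without the female somatic library. The median log2 difference was -1.62 over the 21 genes and -0.11 over all genes tested. Both germ libraries lay below both somatic libraries for 13 of the 21 genes (61.9%; all genes 33.8%) and above them for 2, Cyp2r1 and Cyp46a1 (9.52%; all genes 28.5%). A gene counted here passed the filter in at least 2 libraries, so the trace signals of male germ cells are not in these counts.

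The gene that passed was Cyp1b1 (mm9 chromosome 17, 80106292 to 80114381, minus strand). It had 1.2 SPM in male germ cells and 0.779 SPM in female germ cells, against 61.7 SPM in male somatic cells and 70.5 SPM in female somatic cells. The germ and somatic libraries did not overlap, and the male to female ratio was 1.54 in germ cells (95% interval 0.789 to 3.21) and 0.876 in somatic cells (0.811 to 0.947). It fell by 5.50 on the log2 scale (SE 0.64, limma adjusted p = 0.0328), and the adjusted p ranged over the alternatives from 0.000182 to 0.121. It was 0.121 when the male somatic library was left out, and 0.107 when the female somatic library was. When low values were not filtered, 0 of the 18703 genes with signal passed. Within each sex, Cyp1b1 was 51.6-fold lower in male germ cells than in male somatic cells (95% interval 36.2 to 75.6) and 90.5-fold lower in female germ cells than in female somatic cells (52.9 to 170.6). The traces of Cyp1b1 in the germ libraries stood beside stromal marker sums of 209.9 SPM in male germ cells and 60.2 SPM in female germ cells, against 16220 SPM in male somatic cells and 6025 SPM in female somatic cells, with none of the 7 stromal genes at 0. The part of sorting carry-over in those traces was not tested.

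The other genes of the somatic side did not pass the test. Cyp27a1, the mitochondrial sterol hydroxylase of bile acid synthesis, had 0.457 SPM in male germ cells and 0.0592 SPM in female germ cells, against 6.13 SPM in male somatic cells and 3.38 SPM in female somatic cells (log2 difference -2.79, SE 0.68, limma adjusted p = 0.0667). Cyp4f17, of the fatty acid and leukotriene hydroxylase family, had 3.79 SPM in male germ cells and 1.95 SPM in female germ cells, against 18.1 SPM in male somatic cells and 29.5 SPM in female somatic cells (limma adjusted p = 0.0698). In both of these genes each germ library lay below each somatic library. Cyp2j6 had 3.18 SPM in male germ cells and 0.0197 SPM, under the floor, in female germ cells, against 19.6 SPM in male somatic cells and 13.0 SPM in female somatic cells (limma adjusted p = 0.1025). Cyp4v3 had 4.42 SPM in male germ cells and at 0 in female germ cells, against 9.95 SPM in male somatic cells and 17.5 SPM in female somatic cells (limma adjusted p = 0.162). Male germ cells lay closer to the somatic libraries than female germ cells did in both of these genes: Cyp4v3 was 2.25-fold lower in male germ cells than in male somatic cells (1.77 to 2.88) and at least 97.5-fold lower in female germ cells than in female somatic cells. Cyp20a1, a P450 with no settled substrate, had the highest level per kilobase of the 87 genes in both somatic libraries, at 36.3 SPM per kb in male and 27.8 SPM per kb in female somatic cells. It had 26.3 SPM in male germ cells and 3.45 SPM in female germ cells, against 55.0 SPM in male somatic cells and 42.1 SPM in female somatic cells (limma adjusted p = 0.208).

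Female germ cells were the low library for most expressed P450 genes. They held the lowest value of 16 of the 21 tested genes (76.2%; all genes 33.3%) and male germ cells that of 3 (14.3%; all genes 27.7%). Male somatic cells held the lowest value of 0 genes (all genes 19%) and female somatic cells that of 2 (9.52%; all genes 19.9%). Compared with female somatic cells by a rule of size, a 4-fold difference or more with 5 SPM or more on the higher side, 11 of the 15 genes at that level were lower in female germ cells (73.3%; all genes 23.6%) and 2 were higher (13.3%; 12.5%). The 11 were Cyp1b1, Cyp20a1, Cyp2d22, Cyp2j6, Cyp2s1, Cyp4v3 and the Cyp4f genes Cyp4f13 to Cyp4f17, and the 2 were Cyp2r1 and Cyp46a1. In males the same rule found 5 of 17 genes lower in germ cells than in somatic cells (29.4%; all genes 18.4%) and 4 higher (23.5%; 12.4%). The 5 were Cyp1b1, Cyp27a1, Cyp2j6, Cyp4f17 and Cyp7b1, an oxysterol hydroxylase. The 4 were Cyp2c55, Cyp4f18, Cyp4f39 and Cyp4x1. With 1 library on each side these counts have no replicate check.

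**Figure D4:**
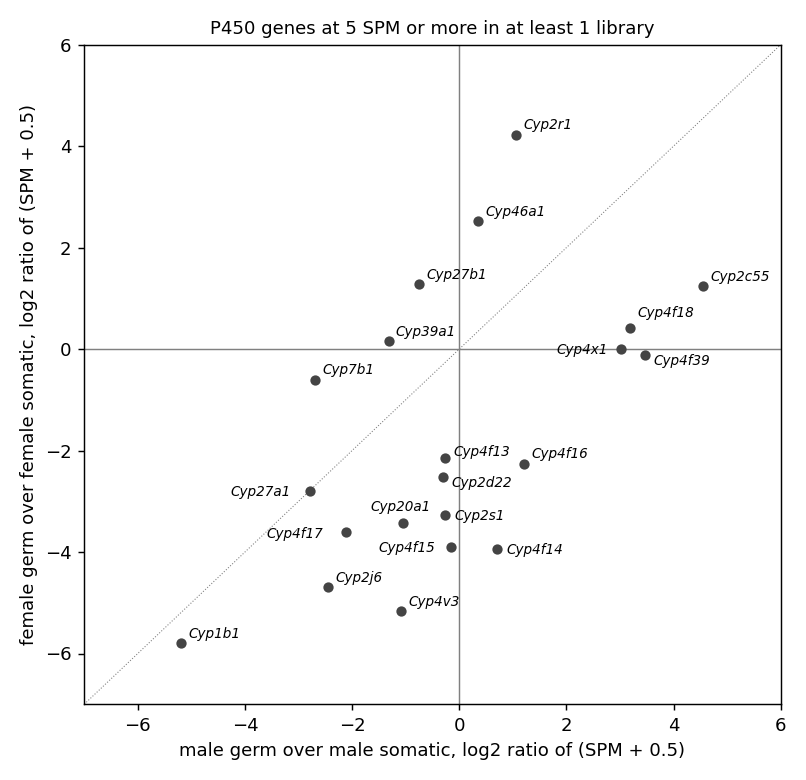
Log2 ratio of (SPM + 0.5) for the 21 P450 genes that reached 5 SPM in a library: female germ over female somatic cells on the vertical axis and male germ over male somatic cells on the horizontal axis. Cyp1b1 lies at the lower left in both sexes, Cyp2r1 and Cyp46a1 lie high on the female axis, and Cyp2c55, Cyp4f18, Cyp4f39 and Cyp4x1 lie at the right. The dotted line marks equal ratios.

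Male and female germ cells were then set against each other. Of 13 P450 genes at 5 SPM or more in either library, 7 were at least 4-fold higher in male germ cells (53.8%; all genes 14.0%) and 2 at least 4-fold lower (15.4%; all genes 10%). The 7 were Cyp20a1, Cyp2c55, Cyp2s1, Cyp4f16, Cyp4f18, Cyp4f39 and Cyp4x1, and the 2 were Cyp2r1 and Cyp27b1. Between male and female somatic cells, 0 of 14 genes were higher in males by this rule (all genes 3.0%) and 2 were lower (14.3%; all genes 3.17%). In the limma fit of a sex difference common to germ and somatic cells, 0 of 21 genes passed in either direction (0.134% of all genes were higher in males and 0.0% lower), and 0 had an unadjusted p under 0.05. Whether the sex difference of any gene differs between germ and somatic cells was not tested.

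Among the genes higher in male germ cells, Cyp4f16 had the highest level of the 87 genes in that library, at 23.3 SPM per kb. It had 50.8 SPM in male germ cells and 4.58 SPM in female germ cells, an 11.1-fold difference (8.77 to 14.1), against 21.8 SPM in male somatic cells and 23.9 SPM in female somatic cells. Cyp2c55 stood at 18.3 SPM in male germ cells, 27.0-fold higher (15.5 to 56.3) than the 0.680 SPM of female germ cells, against 0.305 SPM in male somatic cells and 0 SPM in female somatic cells. The window before its start, printed above, holds no CpG. Cyp4f18 had 6.81 SPM in male germ cells and 0.168 SPM in female germ cells, 3 fragments, a ratio of 40.6 (12.8 to 185.4), against 0.305 SPM in male somatic cells and 0 SPM in female somatic cells. Cyp4f39, the mouse counterpart of the human skin ceramide enzyme CYP4F22, had 6.98 SPM in male germ cells and 0 in female germ cells, a difference of at least 38.9-fold, against 0.177 SPM in male somatic cells and 0.0389 SPM in female somatic cells. Cyp4x1, a fatty acid and endocannabinoid oxidase known from the brain, had 5.001 SPM in male germ cells and 0 in female germ cells, a difference of at least 27.9-fold, against 0.177 SPM in male somatic cells and 0 SPM in female somatic cells. In Cyp2c55, Cyp4f18, Cyp4f39 and Cyp4x1, male germ cells were thus the 1 library above 1 SPM.

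The next of these 7 genes were also well expressed in somatic cells. Cyp2s1, an epithelial P450 induced by dioxin, had 11.7 SPM in male germ cells and 0.858 SPM in female germ cells, 13.6-fold higher (8.16 to 25.7), against 14.1 SPM in male somatic cells and 12.5 SPM in female somatic cells. Cyp20a1 was 7.63-fold higher (5.80 to 10.1) in male than in female germ cells. For Cyp2s1 the male germ library lay near both somatic libraries and the female germ library lay apart.

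The genes of vitamin D turnover were at their highest in germ cells. Cyp2r1 (mm9 chromosome 7, 121693681 to 121706486, minus strand) had 1.59 SPM in male germ cells and 16.3 SPM in female germ cells, against 0.502 SPM in male somatic cells and 0.399 SPM in female somatic cells. Female germ cells stood far above the rest: Cyp2r1 was 10.2-fold lower in male than in female germ cells (7.44 to 14.6) and 40.8-fold higher in female germ cells than in female somatic cells (21.8 to 85.9). Per length, Cyp2r1 at 9.985 SPM per kb and Cyp46a1 at 9.927 SPM per kb were the highest of the 87 genes in female germ cells, nearly level. Over both sexes the germ minus somatic log2 difference of Cyp2r1 was 2.64, with a limma adjusted p of 0.184. Cyp27b1, which makes active calcitriol, had 0.997 SPM in male germ cells and 6.03 SPM in female germ cells, 6.05-fold lower in males (3.87 to 9.48), against 2.02 SPM in male somatic cells and 2.19 SPM in female somatic cells. Cyp24a1, which inactivates calcitriol, had 0.786 SPM in male germ cells and 0.355 SPM in female germ cells, against 0 in both somatic libraries. It shares 712 bases with Pfdn4 on the opposite strand in mm9, and the use of strand in counting is not given. The vitamin D receptor Vdr had 4.34 SPM in male germ cells and 1.66 SPM in female germ cells, against 6.89 SPM in male somatic cells and 17.0 SPM in female somatic cells.

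Sterol and bile acid genes split between cell types. Cyp46a1, the cholesterol hydroxylase of neurons, had 5.90 SPM in male germ cells and 21.2 SPM in female germ cells, against 4.50 SPM in male somatic cells and 3.27 SPM in female somatic cells. It was 3.59-fold lower in male than in female germ cells (2.97 to 4.36) and 6.48-fold higher in female germ cells than in female somatic cells (5.07 to 8.32), and the limma adjusted p over both sexes was 0.312. The libraries of male germ cells and male somatic cells could not be told apart at this depth for Cyp46a1, with a ratio of 1.31 (0.987 to 1.75). Cyp39a1, an oxysterol hydroxylase, had 5.34 SPM in male germ cells and 12.2 SPM in female germ cells, against 14.1 SPM in male somatic cells and 10.9 SPM in female somatic cells. Cyp7b1 had 0.567 SPM in male germ cells and 2.35 SPM in female germ cells, against 6.36 SPM in male somatic cells and 3.82 SPM in female somatic cells. Both of these had their lowest value in male germ cells. Of the bile acid genes proper, Cyp7a1 had signal in male germ cells alone and Cyp8b1 stood at no more than 0.177 SPM in any library.

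A pair of neighbouring Cyp4f genes was higher in female somatic cells than in male somatic cells. Cyp4f15 stood at 1.61 SPM in male somatic cells and 15.1 SPM in female somatic cells, 9.34-fold lower in males (6.28 to 14.3), with 1.40 SPM in male germ cells and 0.542 SPM in female germ cells. Cyp4f14, a leukotriene hydroxylase, stood at 0.659 SPM in male somatic cells and 7.17 SPM in female somatic cells, 10.9-fold lower in males (5.94 to 22.2), with 1.39 SPM in male germ cells and 0 in female germ cells. Mesonephric duct and tubule markers had the same order of somatic libraries: the 6 genes summed to 3.69 SPM in male somatic cells and 22.1 SPM in female somatic cells, with 1 gene (Lhx1) at 0 in male somatic cells, and to 38.2 SPM in male germ cells and 14.2 SPM in female germ cells. The adrenal cortex list summed to 22.9 SPM in male somatic cells and 28.6 SPM in female somatic cells, and its genes did not share 1 order. Nr0b1 was 4.96-fold lower (3.72 to 6.78) and Mrap 3.09-fold lower (2.20 to 4.42) in male somatic cells. Akr1b7 went the other way, 3.6-fold higher (2.89 to 4.50) in male somatic cells. Mc2r had a male to female somatic ratio of 0.476 (0.118 to 1.65), and Cyp11b2 was at 0 in both somatic libraries. The part of these cell types in the Cyp4f difference was not tested. The cluster neighbours Cyp4f13 and Cyp4f17 leaned the same way by less: Cyp4f13 was 1.80-fold lower (1.52 to 2.15) and Cyp4f17 1.63-fold lower (1.42 to 1.87) in male than in female somatic cells. Cyp4f16, in the same cluster, had a male to female somatic ratio of 0.911 (0.797 to 1.04). Cyp4f13 had 8.95 SPM in male germ cells and 4.05 SPM in female germ cells, against 10.9 SPM in male somatic cells and 19.6 SPM in female somatic cells. Cyp2d22, the 1 gene of the Cyp2d cluster at 1 SPM or more, had the same order of somatic libraries, with 9.94 SPM in male germ cells and 2.81 SPM in female germ cells, against 12.5 SPM in male somatic cells and 18.4 SPM in female somatic cells.

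The steroid-making members stood at no more than 2.27 SPM in any library. Cyp19a1, which turns androgens into oestrogens, had 2.27 SPM in male germ cells and 0 in female germ cells, against 0 in male somatic cells and 0.0195 SPM in female somatic cells. The files list it inside a long span given for Cdkn2d on the same strand, as they do Cyp1a2 and Cyp8b1, and Cdkn2d had 21.1 SPM in male germ cells and 63.5 SPM in female germ cells. Cyp11b1 had 0.850 SPM in male germ cells and 0.276 SPM in female germ cells, against 0.699 SPM in male somatic cells and 0 SPM in female somatic cells. Cyp11b2 had 0.302 SPM in male germ cells and 0.168 SPM in female germ cells, and was listed at 0 in both somatic libraries. Cyp21a1 had 0.229 SPM in male germ cells and 0 in female germ cells, against 1.32 SPM in male somatic cells and 0.253 SPM in female somatic cells, where reads may be shared with its near-identical pseudogene. Cyp26c1, the retinoic acid hydroxylase that the rule keeps, had 0.229 SPM in male germ cells and 0 in female germ cells, against 0 in male somatic cells and 0.117 SPM in female somatic cells. The excluded Leydig cell enzyme Cyp17a1 was far higher, at 20.6 SPM in male germ cells and 0 in female germ cells, against 366.8 SPM in male somatic cells and 6.06 SPM in female somatic cells. The 7 fetal Leydig markers, Cyp17a1 among them, summed in male germ cells to 7.45% of their male somatic level, with none at 0. The part of Leydig cell carry-over in the male germ values was not tested.

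Of the 58 genes that were neither at 5 SPM nor in these roles, 47 had signal. Their highest level ran between 0.00914 and 3.44 SPM. Male germ cells held that highest level for 34 of them, female germ cells for 6, male somatic cells for 2 and female somatic cells for 5. Over all genes with signal, at any level, the shares were 33.3%, 26.8%, 20.4% and 19.5% in the same order. The shares among all genes of so low a level were not counted. Cyp2ab1, an orphan P450 named after its values were seen, was the clearest of the female germ group, at 0.165 SPM in male germ cells and 2.25 SPM in female germ cells, against 0 in male somatic cells and 0.0389 SPM in female somatic cells. Cyp2f2, the naphthalene-oxidizing P450 of the lung, also named after its values were seen, had 0.695 SPM in male germ cells and 0 in female germ cells, against 0 in male somatic cells and 2.86 SPM in female somatic cells.

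Genes of the electron donors of P450 enzymes were above 0 in nearly all libraries: of 12 redox partner genes, 1 was at 0 in female germ cells and 0 were at 0 elsewhere. Of 11 redox partner genes tested, 0 passed in germ against somatic cells and the median log2 difference was -0.90. The nearest was Fdxr (limma adjusted p = 0.0509), at 49.7 SPM in male germ cells and 21.5 SPM in female germ cells, against 251.6 SPM in male somatic cells and 181.4 SPM in female somatic cells. Por was highest in female germ cells, the library with the fewest P450 genes at 1 SPM, at 187.7 SPM, with 85.1 SPM in male germ cells, against 85.9 SPM in male somatic cells and 86.0 SPM in female somatic cells. Cytochrome b5 (Cyb5), which aids many P450 reactions, had the order of Cyp4v3: 104.7 SPM in male germ cells and 9.99 SPM in female germ cells, 10.5-fold higher in males (8.97 to 12.3), against 110.7 SPM in male somatic cells and 144.4 SPM in female somatic cells. Of 18 regulators tested, 1 passed, Nr5a1, the steroidogenic factor of gonadal somatic cells (5.56% of all genes tested were lower), which fell by 5.44 on the log2 scale in germ cells (SE 0.44, limma adjusted p = 0.0328). It had 6.56 SPM in male germ cells and 6.23 SPM in female germ cells, against 321 SPM in male somatic cells and 278.1 SPM in female somatic cells. Ahr, the receptor that induces Cyp1a1, Cyp1a2 and Cyp1b1, had 18.0 SPM in male germ cells and 46.2 SPM in female germ cells, against 22.8 SPM in male somatic cells and 13.1 SPM in female somatic cells. Cyp1b1 had another order, with its high levels in somatic cells. Cyp1a1 had 1.54 SPM in male germ cells and 0.601 SPM in female germ cells, against 0 in both somatic libraries. Cyp1a2 had signal in male germ cells alone. The part of Ahr in these levels was not tested. The drug sensors Nr1i2 and Nr1i3 stood at no more than 2.37 SPM in any library, and Hnf4a, a liver regulator, at 1.55 SPM in male germ cells and at 0.0778 SPM or less elsewhere.

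Promoters of the P450 genes held few CpG dinucleotides. RefSeq windows of 300 bases, with 250 before and 50 after the first listed start, were found for 68 of the 87 genes and for 16130 genes in all. The median window held 2.5 CpG over the P450 genes and 15 over all genes, and 57 of the 68 held at most 5 (83.8%; all genes 29.9%). At least 15 CpG were found in 6 windows (8.82%; all genes 50%): those of Cyp20a1, Cyp46a1, Cyp1b1, Cyp2s1, Cyp2r1 and Cyp4v3. Each of these 6 reached 5 SPM in some library, and 3 of them are among the windows printed above. In all, 16 of the 68 genes reached 5 SPM, and CpG-poor ones were among them, such as Cyp4f16 with 2 CpG and Cyp2c55 with 0. The share of all genes with at least 15 CpG that reached 5 SPM was not counted. The 19 windows of genes at 1 SPM or more in a library other than male germ had a median of 4.0 CpG, against 20 over all genes of that kind. The 12 windows of genes at 1 SPM or more in male germ cells alone had a median of 3.0 CpG, against 5.0 over all genes of that kind. The share of CpG-poor windows is a description of these sequences and carries no test.

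**Figure D5:**
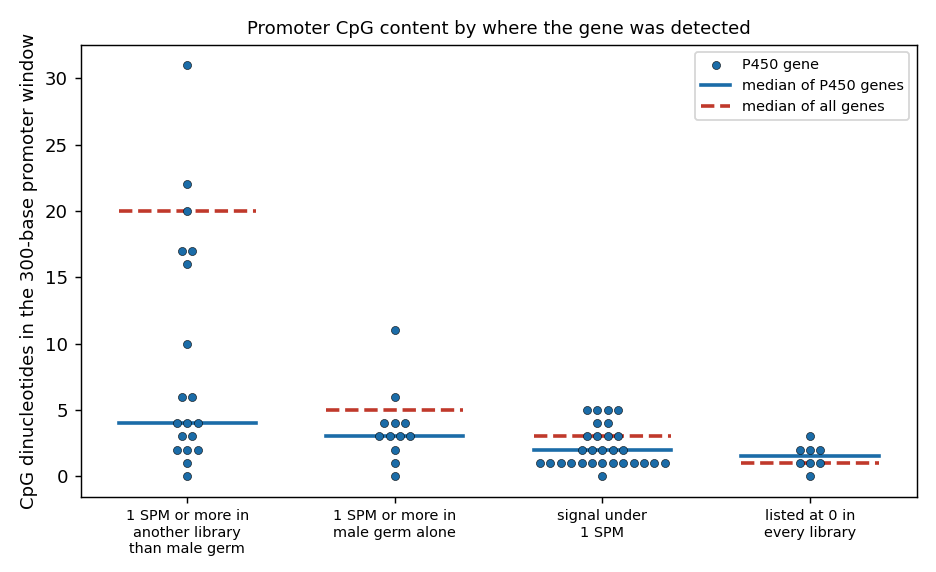
Number of CpG dinucleotides in the 300-base promoter window (vertical axis) of each matched P450 gene (points), by where the gene was detected. Solid lines are medians of the P450 genes (4.0, 3.0, 2.0 and 1.5 in the order drawn) and dashed lines medians of all genes in the class (20, 5.0, 3.0 and 1.0).

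Other letters differed with them. TATAAA, on either strand, was present in 27 of the 68 windows (39.7%; all genes 13.0%). It was found in 1 of 19 windows of genes at 1 SPM or more in a library other than male germ (5.26%; all genes of that kind 7.52%). Genes at 1 SPM or more in male germ cells alone had it in 6 of 12 windows (50%; all genes of that kind 16.1%). The 6 were Cyp1a1, Cyp1a2 and the cluster genes Cyp2c40, Cyp2c55, Cyp2c69 and Cyp2c70. The share was as high in P450 genes with less signal. It was 15 of 29 for signal under 1 SPM (51.7%; all genes of that kind 23.2%). For genes listed at 0 in every library it was 5 of 8 (62.5%; all genes of that kind 41.2%). GCGTG, the core bound by the Ahr complex, on either strand, was present in 16 of the 68 windows (23.5%; all genes 40.2%). GCGTG contains a CpG, so its count moves with CpG content. A match is a description of letters and not a bound site.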

How the data were processed

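Strand-specific, ribosome-depleted RNA-seq of 4 sorted libraries was analysed, grouped by the labelled sex and cell type. CASAVA 1.9, TopHat 1.2.0, edgeR and build mm9 are named in the submitters' processing notes; the counting program, annotation and use of strand are not given there or elsewhere in the sources used. Every deposited file lists 20373 gene rows, of which 74 repeats were dropped. The deposited values are whole numbers under a column named for counts, but the authors' library totals lie between 99.3 and 107.5 M and low values cluster at a spacing of 4.105 to 6.105, so they were treated as a scaled signal and no count model was used. The spacing was taken as 1 fragment; 43.1% to 54.3% of low values lay on it, against 15.0% to 23.3% by chance, so fragment numbers are estimates.

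Signals were scaled by trimmed mean of M values (TMM; factors of 1.07 and 0.956 for the male and female germ libraries, 0.945 and 1.03 for the male and female somatic ones). Germ and somatic cells were compared with limma 3.58.1 (R 4.3.3, trend, log2(SPM + 0.5), 1 SPM in 2 libraries, 2 residual degrees of freedom). Single libraries were compared by ratios with exact conditional binomial 95% intervals. The limma fit was also run on simulated data drawn without a sex difference, so that run does not check the spread used here. P-values rest on the spread between the male and female library of a cell type.

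Named genes were those at 5 SPM or more in a library, those passing limma, and the steroid, vitamin D, sterol and retinoid members. The members and lists were chosen with earlier results of these data known. Other scalings, pseudocounts, filters, size rules and left-out libraries were tried. Coordinates are mm9 from the files and GRCm38.p6 for RefSeq windows; 6 genes have several listed starts.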

Additional observations from a re-analysis of the deposited data

How the results depend on the processing

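Depth limits every value near the floor, and with 1 library per group only the comparison over both sexes has a test. No paired analysis by replicate number was possible because the labels give none; germ and somatic libraries pair by sex alone, and the fit with sex as a term is that paired fit. The 1 gene called in germ against somatic cells became 0 with no filter on low values (76 genes tested; 4625 of all 18703 genes had an unadjusted p under 0.05) and 6 with sex as a term: Cyp2r1 higher, and Cyp1b1, Cyp27a1, Cyp2j6, Cyp4f17 and Cyp4v3 lower. Leaving out each library in turn gave 0 to 8 calls, with 8 without male germ cells and 0 without the one or the other somatic library; the lone library of a side is then assumed to vary like the other side. Upper-quartile scaling moved the median log2 difference of all genes to 0.04, from -0.11 with TMM, and kept the call of Cyp1b1. Under size rules of 4-fold with 1 SPM and with 20 SPM, the 9 genes of male against female germ cells became 24 and 2, the 2 of male against female somatic cells 4 and 0, and the 9 of male germ against male somatic cells 20 and 1. The 13 of female germ against female somatic cells became 5 with 20 SPM. Detection at 0.2 and at 5 SPM counted 50 and 11 genes in male germ cells and 25 and 4 in female germ cells. At 5 SPM male somatic cells had 12 and female somatic cells 12. The shares of all genes under these other size rules and detection minimums were not counted. The changed counts therefore describe the settings and are not set against all genes. The 17 genes with signal in male germ cells alone became 11 with 10 fragments and 8 with 1 SPM, alternatives chosen after seeing the data. Without the female germ library the log2 difference reversed for Cyp27b1 (-0.80, against 0.27 with all libraries and 1.33 without male germ cells) and Cyp4f16 (1.14, against -0.53 and -2.20). The cause was not tested for any of these.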
